A study of Mus musculus with 2 samples.

Results

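Neutrophils with an interferon response were followed among CD45+ cells of the injured mouse thalamus, profiled by scRNA-seq. These interferon-stimulated neutrophils were chosen by their own counts of unique molecular identifiers (UMIs). A member had at least 1 UMI of *Csf3r*, the receptor for the granulocyte growth factor G-CSF, and at least 3 UMIs of *Rsad2*, *Ifit1*, *Ifit3* and *Slfn4* together. Cells with over 2 UMIs of *Gdf15* and *Hilpda*, over 1 UMI of the C1q genes or any *F13a1* UMI, which mark another granulocyte-like population, macrophages and monocytes, were left out. Of 26145 kept cells, 558 were members, of which 548 were among the 14455 cells of the anti-CD9 Ab library and 10 among the 11690 cells of the control Ab library. Cells that passed every other condition with 0 to 2 UMIs of the 4 interferon genes were taken as other neutrophils and numbered 1138 and 75. Levels of the genes used for this choice are given as a description only.

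Both libraries came from mice with cortical ablation injury (CAI), in which sensory and motor cortex is removed on one side. The mice were 12 weeks of age, and the submitters' sample labels give their strain as C57B6/J. An anti-CD9 antibody (clone KMC8) or normal rat IgG as control Ab was injected into the thalamus at 1.0 μg/μl from day 7 to day 19, and cells were collected on day 21. Thalami of the injured hemisphere were dissociated mechanically, and live CD45+ cells were sorted, so that the groups compared here carried both the injury and an intrathalamic injection. Per the methods, thalamic cells of 4 mice were pooled for a library, a number that is not repeated for the antibody groups. The tables held 38042608 UMIs in 12245 barcodes with control Ab and 40825201 UMIs in 15173 barcodes with anti-CD9 Ab. With 1 library per antibody, antibody, pool of mice and library cannot be told apart, and no test between libraries was possible. Ranges in parentheses are 95% intervals that cover counting error only. The libraries shared 54 barcode sequences, none of them between gated neutrophils, and 1 member had the barcode of a cell in the other library.

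Type I interferons signal through the receptor subunits Ifnar1 and Ifnar2, the kinases Jak1 and Tyk2 and a transcription factor complex that includes Stat2 and Irf9, which binds the interferon-stimulated response element in the promoters of its target genes. The targets include antiviral effectors, sensors of foreign nucleic acid, chemokines and proteins that switch the signal off again. Neutrophils are short-lived granulocytes of the blood that enter injured tissue, carry large amounts of the alarmins S100a8 and S100a9, and respond to interferon with such a program.

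The 4 interferon genes of the rule, *Cxcl10* and *Isg15* were looked up among RefSeq promoters (build GRCm38.p6), and the 250 bases before each start site were searched for the core of the response element, GAAANNGAAA, on both strands, with overlapping matches counted separately. *Rsad2* encodes the antiviral enzyme viperin, *Ifit1* and *Ifit3* encode proteins that bind foreign RNA, *Slfn4* belongs to the Schlafen family of myeloid growth regulators, and *Cxcl10* encodes a ligand of Cxcr3, a chemokine receptor of T cells. The windows that hold matches are shown 5′ to 3′ on the strand of the gene with the matches in capitals, because these genes define or lead the population.
Rsad2 (chr12:26456543-26456592, minus strand): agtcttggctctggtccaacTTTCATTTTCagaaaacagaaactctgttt
Ifit1 (chr19:34640765-34640833, plus strand): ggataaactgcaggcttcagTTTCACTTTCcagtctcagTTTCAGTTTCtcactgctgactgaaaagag
Ifit3 (chr19:34583353-34583436, plus strand): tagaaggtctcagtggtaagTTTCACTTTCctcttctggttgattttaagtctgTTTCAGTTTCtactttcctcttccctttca
Cxcl10 (chr5:92349073-92349122, minus strand): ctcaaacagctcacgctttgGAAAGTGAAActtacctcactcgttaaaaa
Isg15 (chr4:156200855-156200916, minus strand): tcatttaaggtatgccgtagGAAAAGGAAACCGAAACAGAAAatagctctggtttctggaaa

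The match nearest the start site began 66 bases before it in *Isg15*, 85 in *Ifit1*, 120 in *Rsad2*, 122 in *Ifit3* and 213 in *Cxcl10*. *Slfn4* had no such letters in its window, and neither had *Ifit2*, *Oasl1*, *Herc6*, *Isg20*, *Trim30c*, *Cd274*, *Acod1*, *Cxcl2*, *Ccl3*, *Il1a* and *F3*, which are described further on. Matches were also found in *Ifit3b*, *Gbp2*, *Gbp5* and *Socs1* (windows not shown), the nearest beginning 154, 59, 165 and 77 bases before the start site. Of 10 chemokine genes with a promoter in the table, *Cxcl10* alone had a match. A match was present in 978 of all 32851 promoters in the table (2.98%). Counted by gene, 210 of the 4894 compared genes with a promoter in the table had one (4.29%), against 29 of 127 genes at least 2-fold higher in the members (22.8%) and 1 of 37 genes at least 2-fold lower (2.70%). Among the interferon-stimulated genes described next, 19 of 55 had a match (34.5%). These are matches of letters and not sites at which binding was measured. The members were chosen by interferon-stimulated genes, so that the share among genes higher in them describes that choice.

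The label was checked against neutrophil markers before any comparison. In the anti-CD9 Ab library, the median member held 29 UMIs of *S100a8* and *S100a9* together at a median depth of 1328 UMIs, against 11 in other neutrophils (median depth 1076 UMIs) and 0 in *Cd3* cells, which had at least 2 UMIs of *Cd3d*, *Cd3e* and *Cd3g* and no *Csf3r*. Of the 548 members, 406 had at least 5 UMIs of these alarmins. The other 142 had a median of 1, so that the rule also took cells without the leading neutrophil markers. This held for the comparison group as well: 699 of the 1138 other neutrophils had at least 5 alarmin UMIs, and the remaining 439 had a median of 0.
*Retnlg*, a resistin-like protein of mature neutrophils, was at 3300.5 CPM (UMIs of a gene per 1000000 UMIs of the group) in the 406 alarmin-rich members and 61.7 in the 142 others. *Cxcr2*, the receptor that draws neutrophils to CXC chemokines, was at 631 and 143 CPM, and *G0s2*, a lipase inhibitor abundant in neutrophils, at 3111 and 526. The antigen presentation gene *H2-Aa* went the other way, at 497 and 1597.5 CPM, as did the lysozyme gene *Lyz2* at 754 and 3357. *Ly6g*, the classical surface marker, was low throughout at 63.1 CPM (42 UMIs) in the first and 0 UMIs in the second. The interferon genes did not follow this split: summed over 71 listed genes outside the rule, they made up 30297 CPM (29881 to 30718) in the alarmin-rich members and 28460 CPM (27867 to 29062) in the rest. In the control Ab library, the 10 members had a median of 3 alarmin UMIs, 3 of the 10 reached 5, and 30.0% had a *Cd3* UMI, so that the label held for few of them. The 75 other neutrophils of that library had a median of 0 alarmin UMIs, 13 of them reached 5, and 36.0% had a *Cd3* UMI.

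The rule itself passed through several steps. In the anti-CD9 Ab library, 2363 kept cells had 3 or more UMIs of the 4 genes and 988 of these had *Csf3r*. C1q genes removed 334 of them, *F13a1* 82 and *Gdf15* with *Hilpda* 24, counted in this order. In the control Ab library, 511 cells passed the first step and 169 had *Csf3r*, but 158 of these were left out for C1q genes. Members held a median of 7 and up to 75 UMIs of the 4 genes, and 122 members had all 4. A further 85 qualified by *Slfn4* alone, and 243 rested on a single *Csf3r* UMI. At the threshold, 88 members had exactly 3 UMIs and 147 other neutrophils exactly 2. Predicted doublets were 8.39% of members, 8.96% of other neutrophils and 12.0% of all kept cells.
With anti-CD9 Ab, members were 3.79% (3.49 to 4.12%) of kept cells and 32.5% (30.3 to 34.8%) of the 1686 gated neutrophils. With control Ab, they were 0.0855% (0.0410 to 0.157%) of kept cells and 11.8% (5.79 to 20.6%) of 85 gated neutrophils. When each cell was thinned to 1000 UMIs before gating, the shares of gated neutrophils were 32.4% (29.5 to 35.4%) and 5.45% (1.14 to 15.1%). Among gated cells with 5 or more alarmin UMIs, a limit chosen after the data were seen, they were 36.7% (33.9 to 39.7%) of 1105 cells and 18.8% (4.05 to 45.6%) of 16 cells. After thinning to 500 UMIs, also chosen after the data were seen, they were 15.1% (13.2 to 17.1%) and 8.54% (3.5 to 16.8%). Without cells bearing lymphocyte or microglia UMIs, they were 35.5% (32.6 to 38.5%) and 12.5% (1.55 to 38.3%). Counted beside *Cxcr2*-bearing other neutrophils alone, the shares were 56.6% (53.4 to 59.8%) and 55.6% (30.8 to 78.5%), the latter from 10 members and 8 such cells, where *Cxcr2* was required of the comparison cells and not of the members. These values describe 2 libraries and are no test between antibodies. All expression values below are from the anti-CD9 Ab library unless stated otherwise.

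Interferon-stimulated genes outside the rule were compared first between members and other neutrophils. Expression was summed over the cells of each group, and the log2 ratio of CPM + 20 was taken for 6146 genes with at least 50 UMIs. Of these, 156 were at least 2-fold higher in members (2.54%) and 55 at least 2-fold lower (0.895%), and the median of all genes was −0.26. With a pseudocount of 1 CPM, the counts were 245 and 567, and with means of per-cell CPM 152 and 160, so that the split between higher and lower genes depended on the scale. Of 71 listed type I interferon-stimulated genes, 65 passed this minimum, and 44 were at least 2-fold higher and 0 at least 2-fold lower, with a median log2 ratio of 1.28 (0.99 to 1.57). The summed level of the list was 29716 CPM (29375 to 30061) in members and 12641 CPM (12476 to 12808) in other neutrophils. The members were selected on genes of the same program, so that these values describe how far the 4 genes stand for the rest of it. The same comparison between cells with 5 or more alarmin UMIs covered 4111 genes with 3.33% higher and 1.39% lower. There, 41 of 54 interferon-stimulated genes were at least 2-fold higher (median 1.32), beside medians of 1.68 for CXC chemokines, 1.38 for Schlafen genes and 1.33 for interferon-inducible GTPases.

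*Rsad2* was at 2112 CPM in members and 70.7 in other neutrophils, *Slfn4* at 2364 and 188, *Ifit1* at 1075 and 37.9, and *Ifit3* at 563 and 32.8, as the rule required. Outside the rule, *Isg15*, a ubiquitin-like modifier, was at 2527 CPM (2428 to 2629) in members and 444 (413 to 476) in other neutrophils. At an equal depth of 1000 UMIs, 76.0% of 445 members and 25.8% of 660 other neutrophils had an *Isg15* UMI, against 11.1% of *Cd3* cells. *Ifit2* and *Ifit3b*, further RNA-binding proteins of the Ifit family, stood at log2 ratios of 2.75 and 3.09. The promoter of *Ifit3b* holds the same 84 bases as shown for *Ifit3*, and reads of such close copies may be shared between them. *Oasl1*, which restrains Irf7 translation, stood at 2.67 (2.40 to 2.93), the ISG15 ligase gene *Herc6* at 2.43, the RNA exonuclease gene *Isg20* at 2.43, the helicase-like gene *Ddx60* at 2.33 and *Trim30c*, one of several similar Trim30 genes, at 2.92. *Or2v1*, annotated as an odorant receptor, stood at 2.45, but its gene model (older symbol *Olfr56*) overlaps that of the interferon-inducible GTPase gene *Ifi47* on the same strand in GENCODE vM21, and their reads cannot be told apart here. The list was not uniform. The antiviral membrane protein genes *Ifitm3* and *Ifitm1*, abundant in both groups, stood at 1.03 and 0.27, and the membrane protein gene *Ms4a6c* at −0.64.

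**Figure D1:**
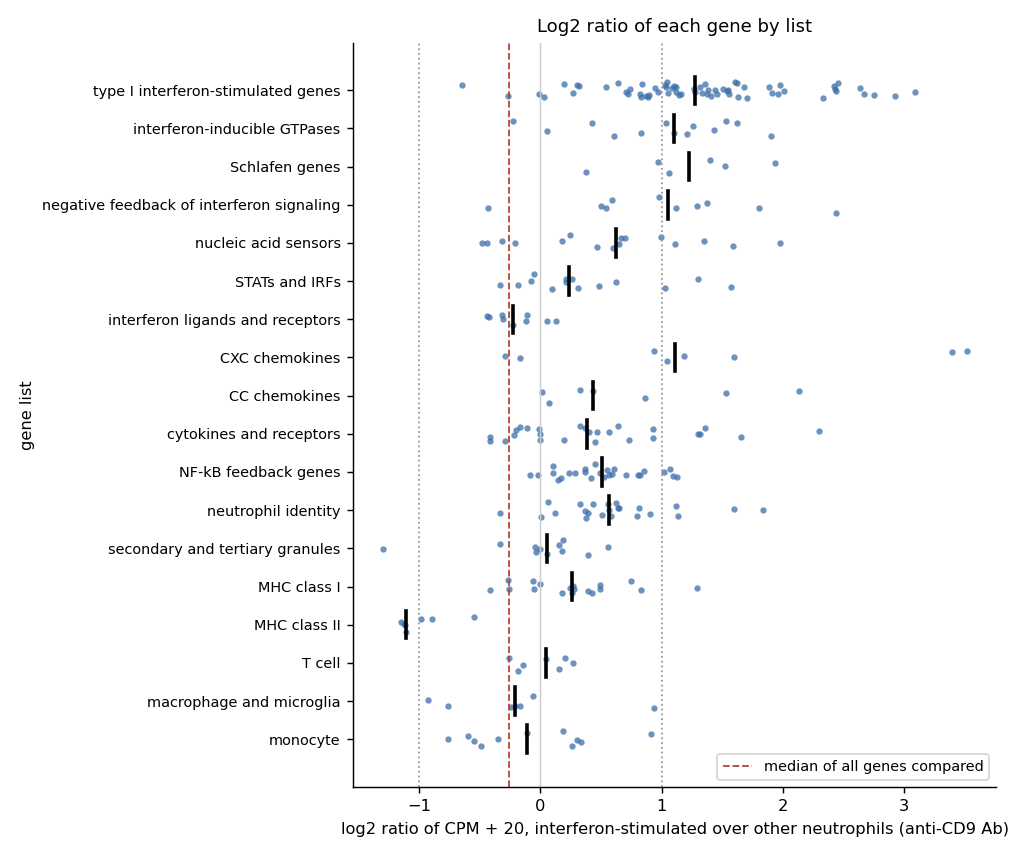
Log2 ratio of CPM + 20 between interferon-stimulated and other neutrophils of the anti-CD9 Ab library, with 1 point per gene of at least 50 UMIs, gene lists on the vertical axis, black bars at list medians, dotted lines at 2-fold and a dashed line at the median of all genes (−0.26). Interferon-stimulated genes center at 1.28 and class II MHC genes at −1.11.

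Of 13 interferon-inducible GTPase genes, which act against intracellular microbes, 8 were at least 2-fold higher and 0 lower (median 1.10). *Gbp5* was at 1105 CPM in members and 280 in other neutrophils, *Gbp2* at 1605 and 508, and *Irgm1* at 525 and 168. *Gbp6* and *Iigp1*, at log2 ratios of 0.06 and −0.23, lay at the other end of the list. Of 6 Schlafen genes outside the rule, 4 were at least 2-fold higher (median 1.23), among them *Slfn5* at 1.94 and *Slfn8* at 1.52.
Genes that sense nucleic acid or limit the signal were mixed. Of 16 sensor and adaptor genes, 4 were at least 2-fold higher and 12 were above 0 on the log2 scale, with the double-stranded RNA sensors *Ifih1* (1.98) and *Rigi* (1.59) and the inflammasome gene *Nlrp3* (1.35) at the top and the DNA sensor *Aim2* (−0.49) at the bottom. Of 10 genes of negative feedback, 5 were at least 2-fold higher. These included *Usp18*, which removes ISG15 and blocks the receptor (289 against 36.8 CPM), *Socs1*, an inhibitor of Jak kinases (322 against 78.0 CPM), and *Cd274*, which encodes PD-L1 (1597 against 602 CPM).
Genes of the pathway itself differed less. Of 14 STAT and IRF genes, 3 were at least 2-fold higher: the regulators *Irf7* (1.57) and *Irf1* (1.03) and the response complex subunit *Stat2* (1.30). None of 9 interferon receptor and Jak kinase genes reached 2-fold in either direction (median −0.23), with *Ifnar2* at 335 CPM (299 to 373) in members and 364 (336 to 393) in other neutrophils. No UMI of 20 type I and III interferon genes was found among 973942 UMIs of the members, which allows up to 3.08 CPM for each gene. The kept cells of all types held 13 UMIs of these genes with anti-CD9 Ab and 28 with control Ab, of which 25 were *Ifnb1* UMIs in 2 cells. *Ifng*, the type II interferon, had 8 UMIs in members (8.21 CPM) and was at 167 CPM in *Cd3* cells.

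Chemokines, which draw leukocytes into tissue, differed as well. Among them, *Cxcl10* and *Ccl4* had been set as markers of the members beforehand, so that their values are a description. Of 15 CC and CXC chemokine genes with 50 UMIs, 7 were at least 2-fold higher in members and 0 lower (median 0.94, 0.56 to 1.31), and the summed level of all 22 listed genes was 29964 CPM against 8495. *Cxcl10* was at 6279.6 CPM (6123 to 6439) in members and 528 (495 to 563) in other neutrophils, 11.9 times as high. *Cxcl11*, a second ligand of Cxcr3, was at 429 (389 to 472) and 22.6 CPM (16.2 to 30.8). *Ccl4* and *Ccl3*, which attract monocytes and T cells, were at 7585 and 3105 CPM in members and 1717 and 1062 in other neutrophils, and *Cxcl2*, a ligand of Cxcr2, at 9800.4 and 3232. *Ccl5* and *Ccl12* stood at 0.07 and 0.01. Against *Cxcr2*-bearing other neutrophils (420 cells), the chemokine median was 2.02 in place of 0.94. With means of per-cell CPM, for which no counting interval was computed, it was 0.57. At 1000 UMIs per cell, 52.6% of members, 15.2% of other neutrophils and 4.58% of *Cd3* cells had a *Cxcl10* UMI, and 58.7%, 34.2% and 7.19% had a *Ccl4* UMI.
Among other secreted and metabolic genes, *Il1a*, a cytokine released from damaged cells, was at 695 CPM (644 to 750) in members and 126 (110 to 143) in other neutrophils. *Il1b* was at 8077 and 4235 CPM, and the receptor antagonist gene *Il1rn* at 1644 and 657. *Acod1*, which makes itaconate, was at 5758 and 1598 CPM and was detected in 86.5% of members and 3.48% of *Cd3* cells at equal depth. *F3*, which encodes tissue factor, the starter of coagulation, was at 223 CPM (194 to 254) in members and 23.2 (16.6 to 31.5) in other neutrophils. It stood at 296 CPM in alarmin-rich members and 64.9 in the rest, and 17.1% of its UMIs in members came from 5 cells. *Nos2*, at a log2 ratio of 1.40, drew 35.6% of its UMIs in members from 5 cells and was at 117 CPM in alarmin-rich members and 412 in the rest.

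**Figure D2:**
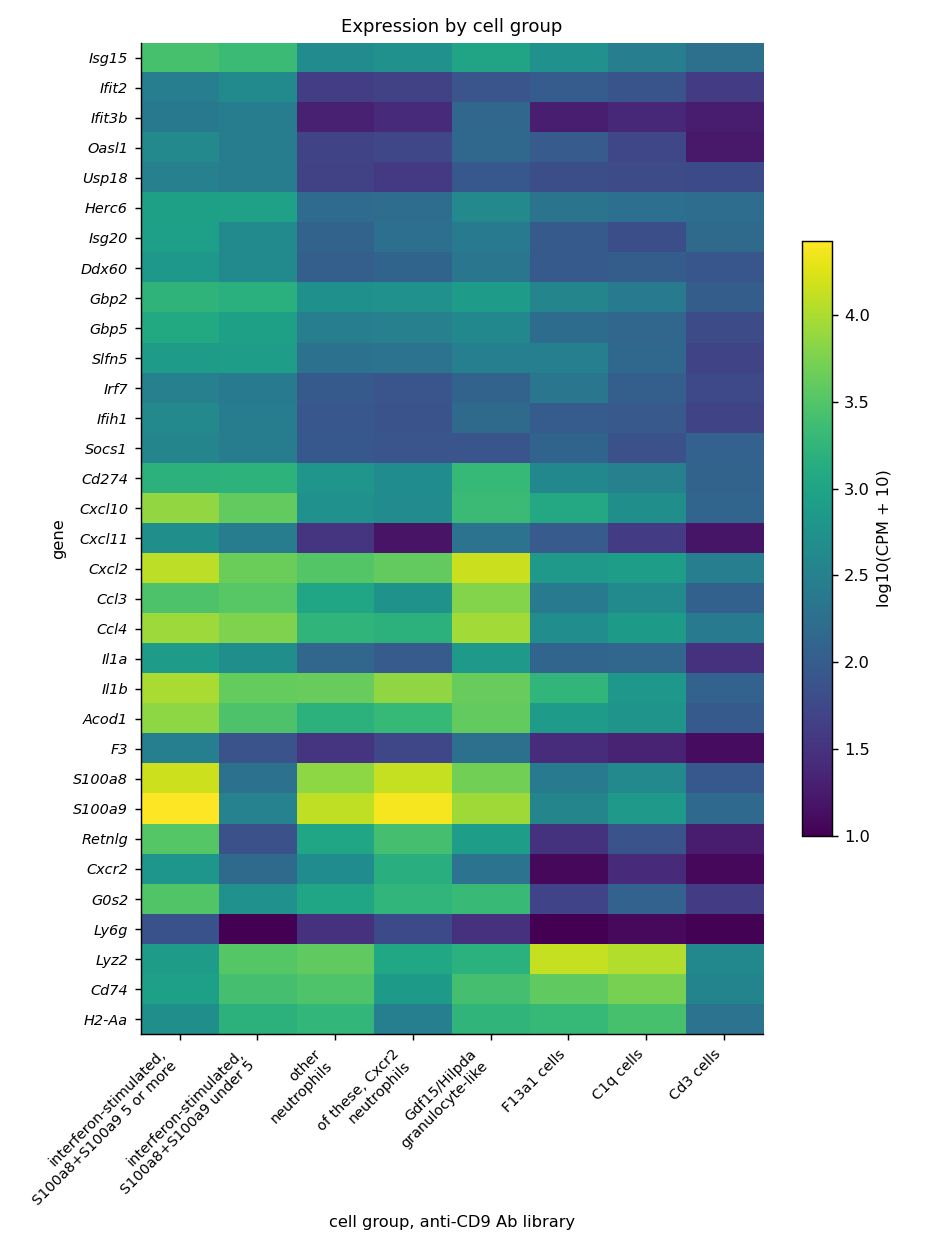
Expression of 33 named genes (rows, color as log10 of CPM + 10) in 8 cell groups of the anti-CD9 Ab library (columns), with the members split at 5 UMIs of *S100a8* and *S100a9*. Interferon-stimulated genes are high in both member columns, which passed the same interferon rule, while *S100a9* is at 26703 CPM in the first and 325 in the second.

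The members varied widely among themselves. At 1000 UMIs per cell, the interferon list gave a median of 31 UMIs per member, with 13 at the 10th and 54 at the 90th percentile. Other neutrophils had a median of 11 (3.9 to 26 at the same percentiles), which 91.0% of members exceeded. *Cxcl10* was more uneven: 47.4% of members had none, the highest had 74 UMIs, and the top 10% of members held 55.4% of its UMIs. For *Ccl4*, the top 10% held 59.0%, and the highest member had 179 UMIs of 1000. *Cxcl10* and *Cxcl11* were found in the same cells. Of 234 members with a *Cxcl10* UMI, 39.7% had *Cxcl11*, against 2.37% of the 211 without, and the like shares for *Ccl4* were 69.7% and 46.4%. *Cxcr2* showed no such pairing, at 29.9% and 36.0%.
Levels were then followed over the number of UMIs of the 4 rule genes that a cell held, in the 445 members and 660 other neutrophils thinned to 1000 UMIs each. At the threshold of the rule, counted before thinning, the interferon list was at 18545 CPM (17657 to 19468) in 88 other neutrophils with 2 UMIs and 21269 (20179 to 22402) in 67 members with 3. *Cxcl10* was at 773 CPM (600 to 980) and 1925 (1607 to 2288) in these cells, and *Ccl4* at 5193 (4728 to 5692) and 6448 (5854 to 7085). The next bins did not continue this for *Ccl4*, which was at 3840.0 CPM (3316 to 4423) in 50 members with 4 UMIs and 5851 in 134 members with 5 to 9. In the last bin, 194 members with 10 or more UMIs, *Ccl4* was at 14211 CPM (13686 to 14752).
Counted after thinning, which placed 14, 31 and 47 members in the bins of 0, 1 and 2 UMIs beside 455, 152 and 53 other neutrophils, the interferon list was higher in each successive bin. It was at 11789 CPM (11480 to 12104) with 0 UMIs, 26508 (25588 to 27454) with 3 to 4 and 49631 (48329 to 50959) with 10 or more. The bins of 3 or more held members alone. Among them, *Cxcl10* was at 2644 CPM with 3 to 4 UMIs, 7274 with 5 to 9 and 17757 with 10 or more, and *Ccl4* was at 16820 CPM in the highest bin. *Cxcr2* was at 703 CPM (560 to 872) with 3 to 4 UMIs and at 414 (303 to 553) with 10 or more, and *H2-Aa* at 466 and 171.

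**Figure D3:**
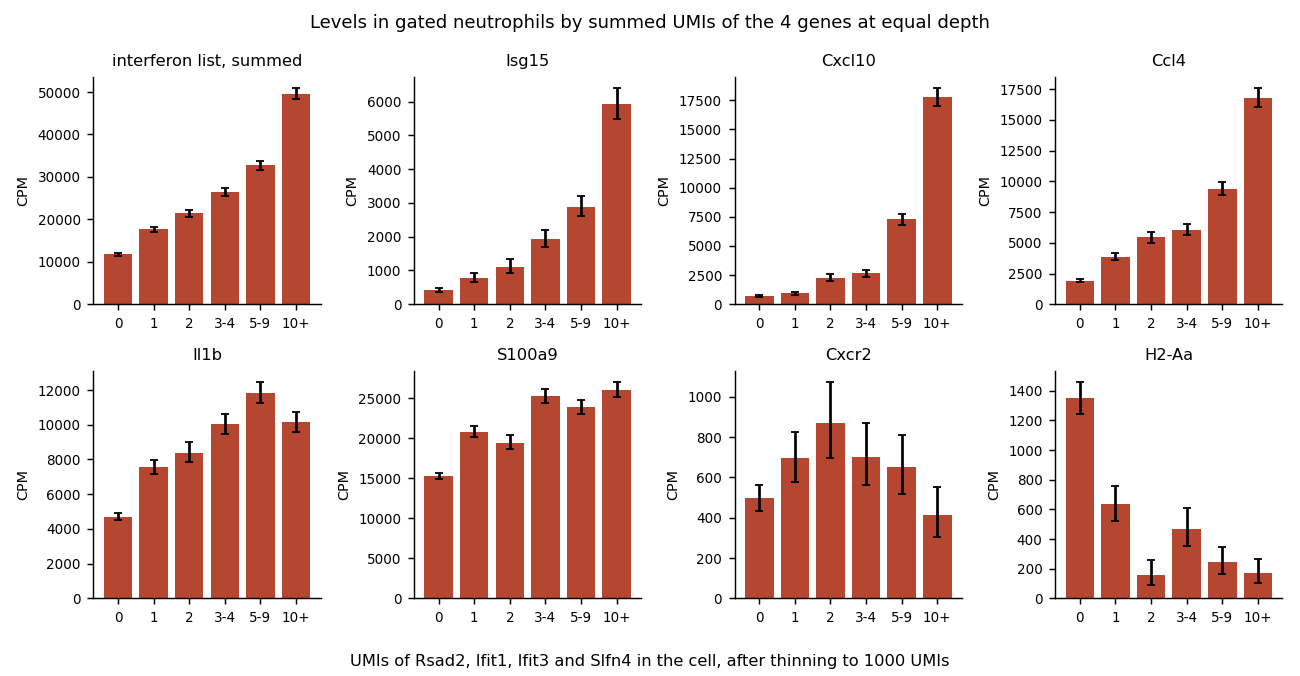
Levels in CPM (bars, 95% Poisson intervals) of the interferon list and 7 genes in gated neutrophils from the anti-CD9 Ab sample, by the number of UMIs of *Rsad2*, *Ifit1*, *Ifit3* and *Slfn4* left after each cell was thinned to 1000 UMIs. Bins of 3 or more hold members alone, and the bins of 0, 1 and 2 also hold 14, 31 and 47 members. *Cxcl10* is at 17757 CPM with 10 or more UMIs.

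Neutrophil genes as a group were moderately higher in members, with a median log2 ratio of 0.57 (0.54 to 0.60) over 23 genes outside the rule, of which 4 were at least 2-fold higher and 0 lower. The 4 were *Acod1*, *Cxcl2*, *Retnlg* (1.14) and *G0s2* (1.12), the last of which was a marker of the members set beforehand. *S100a9* was at 18361 CPM in members and 12369 in other neutrophils, and *Cxcr2* at 476 and 455. The value differed with the cells taken into either group: the median was 0.15 among cells with 5 or more alarmin UMIs, −0.17 against *Cxcr2*-bearing other neutrophils and 0.14 when the rule left out *Slfn4*, under which *Retnlg* was lower in members. Secondary and tertiary granule genes, which encode stored antimicrobial proteins and proteases, gave a median of 0.06 (−0.09 to 0.20). The direction turned to −0.35 (−0.67 to −0.03) when the rule left out *Slfn4* and to −0.34 (−0.57 to −0.12) among cells with 5 or more alarmin UMIs. The lowest gene was *Lyz2*, at 1577 CPM in members and 3922 in other neutrophils. *Mmp8* and *Mmp9*, collagenase and gelatinase of these granules, stood at 0.40 and −0.33.
Class II MHC genes were lower in members, with a median of −1.11 (−1.20 to −1.03) and 4 of 7 at least 2-fold lower. *Cd74* was at 1402 and 3050 CPM, and *H2-Ab1* at 676 and 1522. Among cells with 5 or more alarmin UMIs, the direction turned, with a median of 0.73 over 5 genes and *H2-Aa* at 497 CPM in members and 274 in other neutrophils. In members, 49.9% of *H2-Aa* UMIs came from 5 cells. Of 7 B and plasma cell genes, 5 had 50 UMIs and 1 was at least 2-fold lower (median −0.54, list summed 995 and 1542 CPM). This was *Jchain*, at 164 and 759 CPM, while the most abundant gene, *Ighm*, was at 705 and 546. The immunoglobulin gene *Igha*, outside the list, was at 49.3 and 806 CPM. Among cells with 5 or more alarmin UMIs, 3 of 4 B and plasma cell genes were at least 2-fold lower (median −2.73, list summed 197 and 2489 CPM). In other neutrophils, 92.1% of *Igha* and 89.6% of *Jchain* UMIs came from 5 cells. Of 6 NK cell genes, 2 had 50 UMIs and 1 was at least 2-fold lower (list summed 59.6 and 105 CPM). Of 9 T cell genes, 7 had 50 UMIs and none reached 2-fold (median 0.04, list summed 789 CPM in members and 741 in other neutrophils, led by *Cd3g* at 321 and 277). Of 14 macrophage and microglia genes, of which the rule had held the C1q genes down, 7 had 50 UMIs and none reached 2-fold (median −0.21, list summed 1361 and 2189 CPM, led by *Apoe*). Of 12 monocyte genes, 11 had 50 UMIs and none reached 2-fold (median −0.11, list summed 4154 and 3872 CPM, led by *Plac8*), while the rule fixed *F13a1* at 0. The part of these transcripts in the differences above was not tested.

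The 85 *Gdf15*/*Hilpda* granulocyte-like cells of the anti-CD9 Ab library, which had 3 or more UMIs of *Gdf15* and *Hilpda* together, were compared as a second granulocyte population. Over 3204 genes, 13.1% were at least 2-fold higher in members and 5.71% lower, with a median of 0.18. Of 61 interferon-stimulated genes, 38 were at least 2-fold higher and 0 lower (median 1.16, 0.77 to 1.55), with *Isg15* at 2527 CPM in members and 1001 in these cells. The median of 12 chemokine genes was 0.02 (4 at least 2-fold higher and 1 lower), and the list was at 29964 CPM in members and 34126 in these cells: *Ccl4* was at 7585 and 8984 CPM, *Ccl3* at 3105 and 6166, *Cxcl2* at 9800.4 and 14037, and *Cxcl10* at 6279.6 and 2128. The groups were chosen apart on *Gdf15*, a gene of the stress response, and *Hilpda*, a gene of the hypoxia response, so that the following values are a description of that choice. Genes of the integrated stress response were lower in members (median −1.01, 4 of 8 at least 2-fold lower and 0 higher), with *Gadd45b* at 1349 and 5186 CPM, and so were 5 of 18 glycolysis and hypoxia genes (median −0.70). *Hmox1*, which degrades heme, was at 164 and 641 CPM. Of 22 neutrophil identity genes, 10 were at least 2-fold higher in members and 0 lower (median 0.85), with *S100a9* at 18361 and 8738 CPM and *G0s2* at 2294 and 2107. *Il1a* was at 695 and 684 CPM. Of 8 genes of negative feedback, 3 were at least 2-fold higher in members and 0 lower (median 0.88), with *Cd274* at 1597 and 1973 CPM. Of 13 sensor and adaptor genes, 4 were at least 2-fold higher and 1 lower (median 0.54), with *Nlrp3* at 702 and 712 CPM. Markers of other cells moved with this comparison: all 5 T cell genes with 50 UMIs were at least 2-fold higher in members (median 1.93, list summed 789 and 134 CPM), as were 6 of 10 monocyte genes (median 1.17, 4154 and 1163 CPM). Of 3 B and plasma cell genes, 1 was at least 2-fold higher and 2 were lower (median −2.89, 995 and 2544 CPM, *Jchain* at 164 and 1853). Their part in the differences was not tested.

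The interferon list was also summed in other cells of both libraries. With anti-CD9 Ab, it was at 14402 CPM in *F13a1* cells, 9376 in C1q cells and 6472 in *Cd3* cells, each below the 29716 CPM of members. With control Ab, it was at 17198 CPM (15246 to 19331) in the 10 members, 5024 (4680 to 5387) in other neutrophils, 9970 in 20 *F13a1* cells, 4459 in C1q cells and 6433 in *Cd3* cells. Members were chosen by genes of this program and the *F13a1*, C1q and *Cd3* cells were not, so that the members' rank describes the choice. With anti-CD9 Ab, 2363 kept cells had 3 or more UMIs of the 4 rule genes, and 548 of them were members. Other neutrophils, *F13a1* cells and C1q cells were also higher in the anti-CD9 Ab library, where antibody and library cannot be told apart. The other neutrophils differed in make-up: 699 of 1138 with anti-CD9 Ab and 13 of 75 with control Ab had 5 or more alarmin UMIs. Without the Ifitm genes, the list was at 7094 and 4139 CPM in other neutrophils, 10568 and 7992.5 in *F13a1* cells and 7567 and 4213 in C1q cells (anti-CD9 Ab first). For the *Cd3* cells of the libraries, the intervals of the list overlapped (6412 to 6534 and 6374 to 6492), but those of the list without the Ifitm genes did not (5997 to 6115 with anti-CD9 Ab and 6260 to 6377 with control Ab), nor did those of the GTPases (1101 to 1152 and 1043 to 1091), which went the other way. In the 10 control members, which held 16339 UMIs, *Ifit3* had 28 UMIs (1714 CPM) and *Ifit1* 15 (918 CPM). *Cxcl10* had 6, *Ccl4* had 2 and *Cxcl2* had 1, so that chemokine levels there rested on few UMIs.
*Cd9*, the target of the antibody, was at 1626 CPM (1547 to 1708) in members and 1210 (1160 to 1263) in other neutrophils with anti-CD9 Ab, and at 612 and 605 CPM with control Ab, where it rested on 10 UMIs in members. Among cells with 5 or more alarmin UMIs, it was at 1779 and 1621 CPM with anti-CD9 Ab. The *Gdf15*/*Hilpda* cells of that library were at 1748 CPM. At equal depth, 66.5% of members and 6.32% of *Cd3* cells had a *Cd9* UMI.

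**Figure D4:**
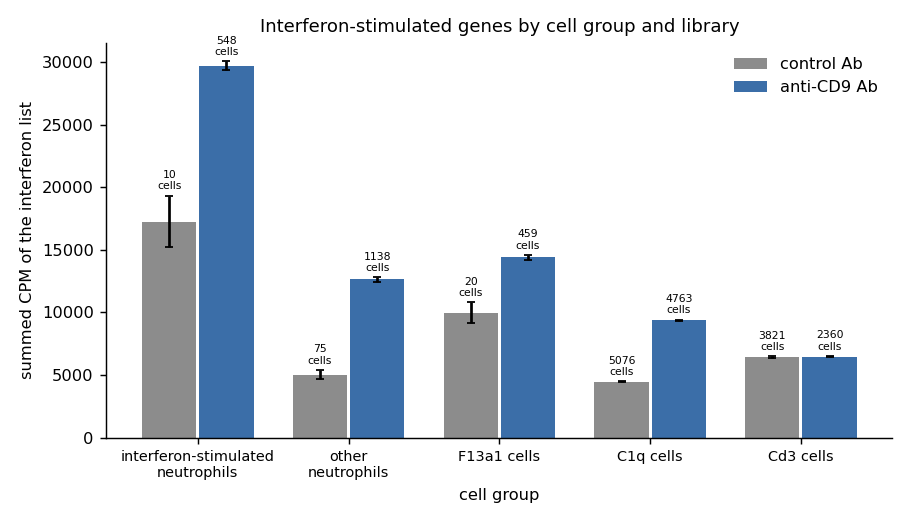
Summed CPM of the interferon list (bars from 0, 95% Poisson intervals) by cell group and library, with the number of cells above each bar. Members of the anti-CD9 Ab library, chosen by genes of this program, are highest at 29716 CPM. The *Cd3* cells of the libraries are at 6472 and 6433 CPM.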

How the data were processed

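The authors deposited filtered tables of UMI counts for each library (raw counts, not normalized), made from 10x Genomics 3′ libraries. The submitters' processing notes name Cell Ranger 8.0.0 and GRCm39, while the paper's methods name an earlier release and GRCm38. Counts were read as deposited. Cells with 200 to 7500 genes and at most 5% mitochondrial UMIs were kept. Where a symbol occurred repeatedly (26 symbols), its first row was taken, and *Ddx58* and *BC100530* were not found under those symbols. Group totals within a library were expressed as CPM. Poisson intervals (CPM) and Clopper-Pearson intervals (shares) are exact at 95%, and intervals of log2 ratios are by the delta method. No p-values were computed, because there was 1 library per antibody and cells are not replicates. Log2 ratios used a pseudocount of 20 CPM, which understates changes of low genes, and genes with 50 or more UMIs over both groups. List medians carry the interval of the median gene. For shares of cells with a UMI, each cell was thinned to 1000 UMIs and shallower cells were left out, which kept 445 of 548 members and 660 of 1138 other neutrophils. Doublets were scored with Scrublet in scanpy 1.11.5, the highest 0.8% per 1000 barcodes were marked (1268 and 1852 cells), and they were left out only as an alternative. C1q cells had 3 or more UMIs of the C1q genes, and *F13a1* cells had *F13a1* without *Csf3r*. The ratios were tested on simulated counts with known folds.

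Members and gene lists were chosen with earlier results of these data known. Genes were named if they belonged to the rule or its markers, were among the 3 highest, 3 lowest or 2 most abundant of a list, or among the 15 highest or lowest of all genes with 200 or more UMIs, with *Cd9* and interferon genes added. Alternatives were a 2% mitochondrial limit, a threshold of 5 UMIs, the rule without *Slfn4*, removal of doublets or of cells with lymphocyte or microglia UMIs, thinning, *Cxcr2* neutrophils as comparison, per-cell means, a pseudocount of 1 CPM and a filter of 200 UMIs. Analyses used Python 3.11.15, NumPy 2.4.6, SciPy 1.17.1 and pandas 2.3.3. Promoters are from RefSeq (GRCm38.p6), matched by symbol, and coordinates are from that table. Results for some genes are not reported here.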

Additional observations from a re-analysis of the deposited data

How the results depend on the processing

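The median of the interferon-stimulated genes over other neutrophils stayed between 1.26 and 1.52 in every setting tried, and of the genes at least 2-fold apart among those named, all kept their direction except *Retnlg* (rule without *Slfn4*) and *Retnlg*, *Lyz2* and class II MHC genes (against *Cxcr2* neutrophils) or class II MHC genes alone (alarmin minimum). Still at least 2-fold apart were 43 of 61 named genes against *Cxcr2* neutrophils, 47 of 63 without *Slfn4*, 47 of 63 at the alarmin minimum, 54 of 63 at the 2% mitochondrial limit, 50 of 62 without cells bearing lymphocyte or microglia UMIs, 54 of 60 and 48 of 59 at 1000 and 500 UMIs per cell and 56 of 63 with per-cell means, and all compared in the other settings. The median over *Gdf15*/*Hilpda* cells stayed between 1.02 and 1.41, and was 1.59 at 500 UMIs per cell. The alarmin minimum and thinning to 500 UMIs were chosen after seeing the data. The cause of each change below was not tested, except that stricter rules and thinning take fewer cells by construction.

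Of kept cells with anti-CD9 Ab, members were 5.61% at the 2% mitochondrial limit, 2.70% at 5 UMIs, 2.42% without *Slfn4*, 8.24% without cells bearing lymphocyte or microglia UMIs, 2.81% at the alarmin minimum, and 2.95% and 1.40% when thinned to 1000 and 500 UMIs. With control Ab, they were 0.212% without such cells, 0.0257% at the alarmin minimum, 0.0428% at 5 UMIs and 0.0299% at 1000 UMIs. Of gated neutrophils with anti-CD9 Ab, they were 25.5% at 5 UMIs, 20.8% without *Slfn4*, 35.5% without cells bearing other markers, 36.7% at the alarmin minimum, 15.1% at 500 UMIs and 56.6% when only *Cxcr2* neutrophils were counted beside them. With control Ab, they were 6.25% at 5 UMIs, 12.5% without cells bearing other markers, 5.45% at 1000 UMIs and 55.6% beside *Cxcr2* neutrophils. In the setting of 5 UMIs, cells below 5 that reached the rule's minimum of 3 were in neither group, for these shares and for the ratios. The neutrophil identity median of 0.57 was 0.44 (2% limit), 0.68 (5 UMIs), 0.14 (without *Slfn4*), 0.41 (other markers removed), 0.32 and 0.40 (1000 and 500 UMIs), 0.44 (per-cell means), 0.15 (alarmin minimum) and −0.17 (*Cxcr2* neutrophils), where it turned. The granule median of 0.06 was −0.35, −0.16, −0.14, −0.28 and −0.34 without *Slfn4*, at 1000 and 500 UMIs, against *Cxcr2* neutrophils and at the alarmin minimum. The chemokine median of 0.94 was 2.02 against *Cxcr2* neutrophils, 1.36 at 200 UMIs, 1.43 at 500 UMIs per cell and 0.57 with per-cell means. Genes at least 2-fold higher numbered 245 with a pseudocount of 1 CPM. Genes at least 2-fold lower numbered 93 (2% limit), 178 (5 UMIs), 129 (doublets removed), 181 (other markers removed), 133 and 145 (thinned), 85 (*Cxcr2* neutrophils), 160 (per-cell means), 567 (pseudocount 1 CPM) and 24 (filter of 200 UMIs). No paired analysis was possible because each antibody had 1 library.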
